A study of Homo sapiens with 18 samples.

Results

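The genes described here are 40 protein-coding genes of ribosome biogenesis and the nucleolus, chosen by name from the 60656 genes of the deposited count table. They comprise 3 box C/D and 4 box H/ACA small nucleolar ribonucleoprotein (snoRNP) genes, 7 genes of nucleolar scaffold and chaperone proteins, 13 of the small subunit processome and 40S maturation, 9 of 60S maturation and 4 of RNA polymerase I and its initiation. RNA was sequenced from 2 human diffuse large B-cell lymphoma cell lines, Ly1 of the germinal centre B-cell type (GCB) and U2932 of the activated B-cell type (ABC). Each line received the vehicle DMSO, or SGC-GAK-1, a chemical inhibitor of cyclin G-associated kinase (GAK), at a dose of 1 µM over 12 h or over 24 h, with 3 libraries in each of the 6 groups. The labels name no other agent or genetic change for any group and give no time for DMSO, and both treated groups of a line are set against the same DMSO libraries. Replicates carry the numbers 1, 2 and 3, but the labels do not say that they were separate cultures, and a p-value here covers no more than the scatter among the libraries.

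Ribosomes are built in the nucleolus, where RNA polymerase I transcribes the precursor of the ribosomal RNAs. Box C/D and box H/ACA snoRNPs methylate and pseudouridylate that precursor, the small subunit processome folds and cuts it towards the 40S subunit, and a separate set of factors builds the 60S subunit. The transcription factor MYC binds E-boxes in many of these genes and drives ribosome production in fast-growing cells, B-cell lymphomas among them.

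The table holds raw counts, from 22549853 to 29386802 in a library. Levels below are TMM-scaled CPM, that is, counts scaled to a common library size. Differences are log2 fold changes with their standard error (SE) from edgeR's quasi-likelihood test, and a gene is called at an adjusted p under 0.05 over all genes tested. All 40 genes passed the filter on low counts in every fit, and 38 were at 20 CPM or more in every library. The others were NOP2, a ribosomal RNA methyltransferase gene at 0.625 to 2.21 CPM, and PPAN, a 60S assembly factor gene at 4.19 to 6.90 CPM. Both overlap another gene on the same strand, NOP2 over most of its length AC006064.6 and PPAN the readthrough gene PPAN-P2RY11, so their counts are uncertain. In all, 22 of the 40 overlap some other gene and 8 have named pseudogenes, 46 of them for NPM1, and the sources used here do not say whether counting used strand. Overlapping genes with more counts than the member include CD74 for TCOF1, PDXDC1 for RRN3, HIGD2A for NOP16 and XPO5 for POLR1C. In bulk RNA, fewer cells of a kind and less RNA per cell cannot be told apart.

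All 6 B-cell markers were expressed in both lines, and their summed level was 2600 to 3110 CPM in Ly1 and 2190 to 2630 CPM in U2932. Lists of 5 markers each for T and NK cells, for myeloid cells and for fibroblasts and endothelium summed to at most 8.38, 1.2 and 5.06 CPM in any library, with FCGR3A at 0 in all 18 libraries and NKG7 at 0 in all Ly1 libraries. The 5 epithelial markers summed to 3.49 to 5.83 CPM in Ly1 and to 27 to 35.7 CPM in U2932, where EPCAM alone was at 26.9 to 35.3 CPM.

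Per kilobase of exon, the members spanned a wide range of levels in DMSO. NPM1 (nucleophosmin, chr5:171387116-171411137), a histone and ribosomal protein chaperone, was highest in both lines, at 439 CPM per kilobase in Ly1 and 446 in U2932. NCL (nucleolin, chr2:231453531-231483641), which binds the ribosomal RNA precursor, was next in Ly1 at 280.4 CPM per kilobase, while in U2932 it was at 147, below FBL (fibrillarin, chr19:39834458-39846379), the methyltransferase of box C/D snoRNPs, at 163. NHP2 and NOP10, small structural proteins of box H/ACA snoRNPs, were at 151 and 113 CPM per kilobase in Ly1 and at 102 and 142 in U2932, so their order turned between the lines. At the low end, apart from NOP2 and PPAN, stood RRP12, WDR12, UTP15 and POLR1C, at 5.91, 6.53, 7.23 and 7.62 CPM per kilobase in Ly1.

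RefSeq promoter windows (GRCh38.p14), from 250 bases before to 50 bases after the start, were held for 34 of the 40 genes and not for NOP58, NOLC1, TCOF1, RRP12, BOP1 and RRS1. The letters CACGTG, the E-box that reads the same on both strands, stood in 11 of the 34 windows (32.4%), in 7.26% of 35116 windows of all genes and in 9.25% of 15538 windows of tested genes. The 11 were those of FBL, NOP10, MYBBP1A, UTP4, UTP20, WDR43, RRP9, NOP14, BYSL, PES1 and NOP2. A match describes the letters only, and its absence says only that they are not in the window. The windows of 4 members that the results return to are printed 5′ to 3′ on the gene's strand, from 250 bases before to 30 bases after the start, with CACGTG in capitals. FBL (chr19:39846350-39846629, minus strand) and NCL (chr2:231464455-231464734, minus strand) are shown because they were the 2 members lower by 0.5 log2 or more in all U2932 libraries with low MYC, the one with the E-box and the other without. NOP10 (chr15:34343107-34343386, minus strand), with 2 matches, and LYAR (chr4:4290125-4290404, minus strand), with none, are shown because both were higher in every Ly1 library at 24 h than in DMSO.
FBL: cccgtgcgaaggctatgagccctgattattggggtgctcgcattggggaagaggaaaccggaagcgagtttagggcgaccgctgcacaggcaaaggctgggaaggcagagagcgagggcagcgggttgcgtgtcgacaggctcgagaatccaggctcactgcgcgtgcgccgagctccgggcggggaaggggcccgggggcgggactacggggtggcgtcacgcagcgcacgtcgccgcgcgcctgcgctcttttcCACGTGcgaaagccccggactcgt
NCL: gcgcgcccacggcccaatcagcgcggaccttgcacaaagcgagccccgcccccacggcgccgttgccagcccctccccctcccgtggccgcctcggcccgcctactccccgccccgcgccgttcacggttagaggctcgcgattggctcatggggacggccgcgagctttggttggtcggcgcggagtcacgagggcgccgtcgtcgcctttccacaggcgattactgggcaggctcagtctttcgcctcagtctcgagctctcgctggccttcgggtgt
NOP10: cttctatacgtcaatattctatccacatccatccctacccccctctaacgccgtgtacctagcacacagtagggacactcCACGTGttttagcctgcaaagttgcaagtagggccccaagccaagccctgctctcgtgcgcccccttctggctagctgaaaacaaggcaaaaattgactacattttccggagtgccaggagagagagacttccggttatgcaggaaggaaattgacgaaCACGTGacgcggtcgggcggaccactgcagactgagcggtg
LYAR: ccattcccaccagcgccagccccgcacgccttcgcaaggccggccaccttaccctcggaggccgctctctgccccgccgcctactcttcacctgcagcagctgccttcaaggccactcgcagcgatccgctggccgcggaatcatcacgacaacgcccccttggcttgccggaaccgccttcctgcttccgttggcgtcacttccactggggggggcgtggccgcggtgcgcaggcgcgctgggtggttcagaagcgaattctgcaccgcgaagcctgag

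The first comparison asks how the genes differ between the lines without the inhibitor. In DMSO, 16 of the 40 genes differed, 6 higher and 10 lower in U2932. That is 40% of the members, against 63% of the 16191 genes tested (33.1% higher and 29.9% lower). The median log2 difference of the members was -0.015 and that of all genes 0.016, and 19 members lay above 0 where 50.9% of all genes did. The members' median was above 0 without Ly1 DMSO replicate 2 (0.027), Ly1 24 h replicate 1 (0.0034), U2932 DMSO replicate 3 (0.039) or U2932 24 h replicate 1 (0.013). In 8 members every U2932 library stood above every Ly1 library and in 11 below, against 34.5% and 30.9% of all genes. At an unadjusted p under 0.05, 22 members passed (66.3% of all genes). With DESeq2's size factors in edgeR the split of calls was 9 higher and 8 lower (62.8% of all genes were called), and with library size alone 9 and 9 (62.7%). Without the replicate 3 libraries it was 14 higher and 14 lower, where 38% and 35.4% of all genes were called (73.4% in all).

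Of the 9 genes of 60S maturation, 4 were lower and 1 was higher in U2932. BOP1 (chr8:144262045-144291438), whose protein joins PES1 and WDR12 in a 60S processing complex, was at 187, 191 and 145 CPM in the 3 Ly1 libraries and 97.4, 96.6 and 56.9 CPM in U2932. The groups stood far apart, and the log2 difference was -1.06 ± 0.19 (SE; edgeR adjusted p = 0.000121). PES1 was at 165, 173 and 147 CPM in Ly1 and 143, 147 and 125 CPM in U2932, a much smaller difference of -0.23 ± 0.094 (adjusted p = 0.0419). The PES1 call was lost when any 1 of 7 single libraries was left out, U2932 DMSO replicates 1 and 3 among them. WDR12 was not called (0.14 ± 0.091). NOP16, another 60S factor, was at 74.8, 75.0 and 56.7 CPM in Ly1 and 40.5, 42.7 and 33.1 CPM in U2932, with no overlap and a difference of -0.83 ± 0.18 (adjusted p = 0.000594). RRS1, which helps to bring the 5S particle into the 60S precursor, was also lower (-0.46 ± 0.13). NOP2 was at 0.625, 0.648 and 1.08 CPM and 2.21, 0.965 and 1.45 CPM, which overlap, and its call (0.98 ± 0.34) was lost without Ly1 DMSO replicate 1 or 2 or U2932 DMSO replicate 1.

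Among the 7 scaffold and chaperone genes, LYAR was higher in U2932 and NCL and GNL3 were lower. LYAR (chr4:4267701-4290154), a nucleolar zinc finger protein, was at 50.9, 50.7 and 43.4 CPM in Ly1 and 105, 107 and 78.6 CPM in U2932. Its lowest U2932 library stood above its highest Ly1 library, and the difference was 1.00 ± 0.15 (adjusted p = 1.75e-05). NCL was at 1912, 2119 and 1798 CPM in Ly1 and 1173, 1181 and 693 CPM in U2932, a difference of -0.94 ± 0.20 (adjusted p = 0.000473). All 3 U2932 libraries were below Ly1, replicate 3 by the most. GNL3 (nucleostemin, a nucleolar GTPase) was at 191, 188 and 168 CPM in Ly1 and 163, 154 and 149 CPM in U2932. Its difference was -0.23 ± 0.097 (adjusted p = 0.0463), and the call was lost when any 1 of 11 single libraries was left out, among them each of the 3 U2932 DMSO libraries. NPM1 was at 1803, 1759 and 1484 CPM in Ly1 and 1713, 1834 and 1579.8 CPM in U2932. These overlap, and the difference was 0.023 ± 0.12 (adjusted p = 0.878).

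The 4 box H/ACA genes, whose proteins share 1 particle, differed in both directions. GAR1 was at 32.6, 31.2 and 22.3 CPM in Ly1 and 46.3, 42.2 and 41.8 CPM in U2932, higher by 0.60 ± 0.12. NOP10 (chr15:34341719-34343136) was at 66.7, 66.6 and 54.8 and 82.9, 77.9 and 75.4 CPM, higher by 0.33 ± 0.11, a call lost without U2932 DMSO replicate 1. NHP2 was at 259.9, 255 and 171 CPM in Ly1 and 152, 159 and 151 CPM in U2932, with a difference of -0.57 ± 0.15 (adjusted p = 0.00324). All 3 of these had no overlap between the lines. DKC1, the pseudouridine synthase, was at 245, 245 and 191 and 235, 236 and 203 CPM, which overlap (-0.018 ± 0.11). None of the 3 box C/D genes was called. NOP58 was at 172, 175 and 154 CPM in Ly1 and 196, 201 and 206 CPM in U2932, apart but short of the threshold (0.27 ± 0.12, adjusted p = 0.0608). NOP56 was at 211, 216 and 193 and 253, 229.7 and 203 CPM (0.15 ± 0.095). FBL was at 309.7, 312 and 275 and 414, 391 and 259 CPM (0.25 ± 0.18), where U2932 replicates 1 and 2 stood above Ly1 and replicate 3 below it. Without the replicate 3 libraries FBL was higher by 0.37 ± 0.051.

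Of the 13 small subunit genes, NOP14 and BYSL were higher in U2932 and UTP15 and DDX10 lower. NOP14, a processome component, was at 94.2, 104 and 89.9 CPM in Ly1 and 172, 176 and 148 CPM in U2932, far apart, with a difference of 0.78 ± 0.10 (adjusted p = 2.17e-06). BYSL, of the late 40S precursor, differed by 0.27 ± 0.098, UTP15, of the processome, by -0.44 ± 0.12, and DDX10, an RNA helicase, by -0.33 ± 0.10. The BYSL call was lost without Ly1 DMSO replicate 1 or 3 or without U2932 DMSO replicate 1 or 2, and that of DDX10 without the U2932 replicate 3 libraries. HEATR1 and UTP20 are large scaffold proteins of the processome. HEATR1 was at 156, 148 and 136 CPM in Ly1 and 163, 176 and 152 CPM in U2932 (0.16 ± 0.10), and UTP20 at 108, 111 and 81.0 and 85.8, 94.5 and 67.6 CPM (-0.27 ± 0.16); neither passed the test.

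All 4 RNA polymerase I genes had differences below 0, and RRN3 was called. RRN3, the factor that makes the polymerase competent to initiate, was at 98.5, 94.0 and 79.9 CPM in Ly1 and 62.5, 67.6 and 81.0 CPM in U2932, a difference of -0.37 ± 0.11 (adjusted p = 0.00549). U2932 replicate 3 reaches into the Ly1 range. POLR1A, the largest subunit, was at 143, 149 and 151 and 133, 134 and 112 CPM (-0.23 ± 0.14), apart but not called. POLR1B, the next largest, was at 97.6, 95.6 and 76.6 and 73.2, 80.5 and 61.3 CPM (-0.33 ± 0.15), which overlap.

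**Figure D1:**
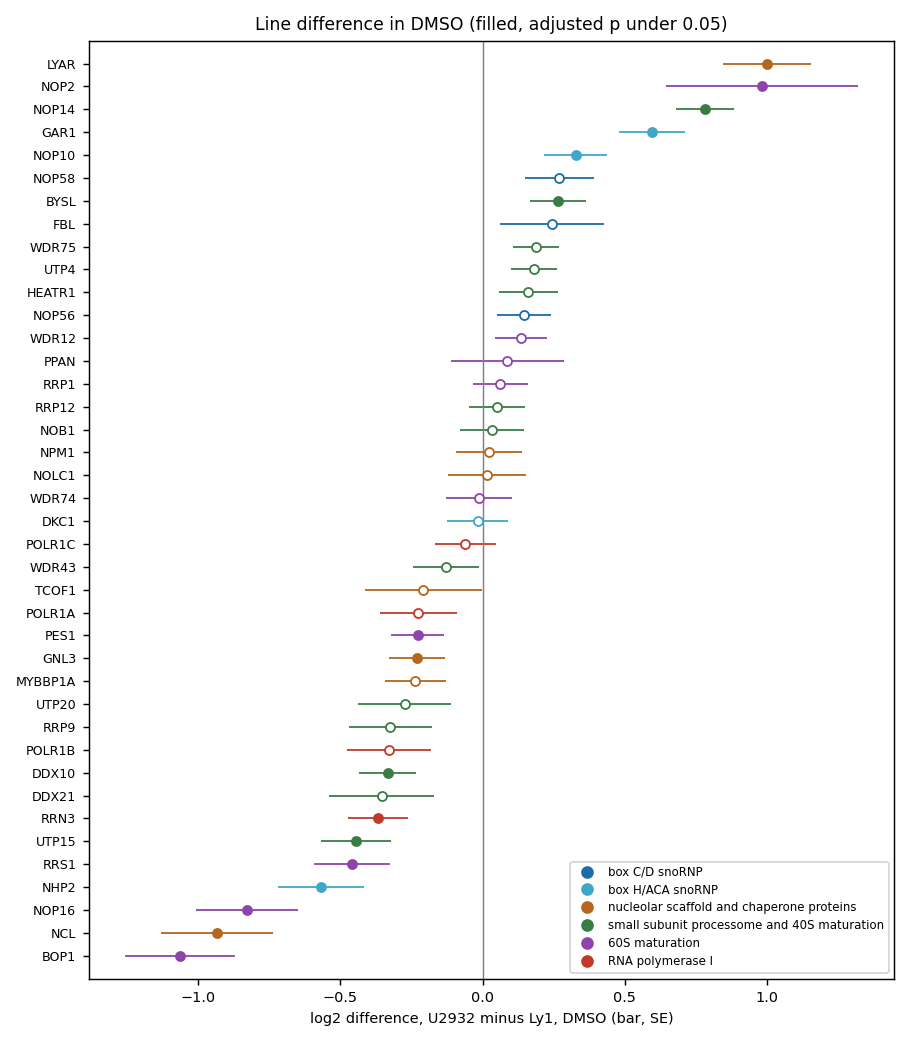
Log2 difference between U2932 and Ly1 in DMSO (x axis; bars: SE, 3 libraries a line) for the 40 genes, coloured by role, with filled points for an adjusted p under 0.05. LYAR at 1.00 and BOP1 at -1.06 lie at the ends, and 16 points are filled.

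Of 133 other biogenesis genes listed by role, 129 were tested between the lines, and 18 were higher and 44 lower in U2932. These are 14% and 34.1% of them, against 33.1% and 29.9% of all genes. The largest differences among them were those of NOL9, an RNA kinase of precursor processing (-2.55 ± 0.14), and IMP4, of the processome (-2.31 ± 0.12). IMP3, which works in the same complex as IMP4, differed in the other direction (0.94 ± 0.094). EXOSC8 of the RNA exosome (1.16 ± 0.10), the 60S factor MAK16 (1.13 ± 0.096) and RUVBL1, an ATPase of snoRNP assembly (1.05 ± 0.094), were higher. Lower ones included the 60S factors NIFK (-1.41 ± 0.13) and RPF2 (-1.29 ± 0.13) and the small subunit factor LTV1 (-1.29 ± 0.19). Of 13 host genes of snoRNAs tested, 2 were higher and 3 lower. SNHG5 differed by 2.65 ± 0.12 and SNHG6 by -0.98 ± 0.21. MYC was at 414, 445 and 384 CPM in Ly1 and 323, 343 and 50.3 CPM in U2932, where replicate 3 stood far below the others. Its difference was -0.80 ± 0.75 (edgeR adjusted p = 0.373).

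The second set of comparisons asks how SGC-GAK-1 moved the genes in each line. In the main fit, which had no replicate block, no member was called in either line at 12 h or 24 h, nor between the times. In Ly1 at 24 h, 0.55% of the 14005 genes tested were called, and in the other 5 comparisons 0% were. At an unadjusted p under 0.05, Ly1 had 0 members at 12 h, 5 at 24 h and 3 between the times, where 6.13%, 16.5% and 10.3% of all genes passed. U2932 had 5, 3 and 0, where 3.42%, 11.3% and 8.42% passed. DESeq2 called 2 members in Ly1 at 24 h, 5% of the members against 4.64% of the genes with an adjusted p, and 0 in the other 5, and limma's voom called 0 in all 6. With the replicate as a block, edgeR called 2 members in Ly1 at 24 h (1.96% of all genes) and 2 in U2932 at 24 h (4.41%). In the remaining comparisons it called 0.

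Against DMSO the members as a group lay slightly above 0. In U2932 at 12 h, 36 of the 40 had a log2 fold change above 0, with a median of 0.13, where 48.6% of all genes did. In that comparison all 13 small subunit genes, all 7 scaffold genes and all 4 RNA polymerase I genes lay above 0, with medians of 0.15, 0.14 and 0.077. At 24 h the count was 28 (50.5% of all genes) and the median 0.061, and from 12 h to 24 h it was 9 (51%) and -0.060. In Ly1 it was 30 at 12 h (48.7%; median 0.046), 32 at 24 h (48.3%; median 0.11) and 29 between the times (51.3%; median 0.097). These shifts rest in part on single libraries. Without U2932 DMSO replicate 3, 26 members lay above 0 in U2932 at 12 h (median 0.053) and 18 at 24 h (median -9.2e-04). Without Ly1 DMSO replicate 3, 16 lay above 0 in Ly1 at 12 h (median -0.033). Without U2932 24 h replicate 3, 20 lay above 0 between the U2932 times (median -7.2e-05), and the 24 h median was 0.13. Without Ly1 24 h replicate 3 the Ly1 medians were 0.22 at 24 h and 0.19 between the times. Over every single library left out, the count above 0 ran from 16 to 37 in Ly1 at 12 h, 25 to 34 at 24 h and 27 to 30 between the times, and from 26 to 37, 18 to 32 and 5 to 20 in U2932. The medians of all genes lay between -0.011 and 0.0083 in these 6 comparisons. Of the other biogenesis genes tested none was called. In U2932, 112, 79 and 39 of 128 lay above 0 at 12 h, at 24 h and between the times (medians 0.080, 0.026 and -0.049). In Ly1, 79, 84 and 81 of 129 did (medians 0.013, 0.053 and 0.053).

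In Ly1 the member nearest to a call was LYAR. It was at 50.9, 50.7 and 43.4 CPM in DMSO, 62.7, 61.2 and 60.1 CPM at 12 h and 95.5, 91.2 and 58.1 CPM at 24 h. All treated libraries stood above all DMSO libraries, though replicate 3 at 24 h stayed near its 12 h level. The log2 fold change was 0.34 ± 0.16 at 12 h (adjusted p = 0.83) and 0.76 ± 0.16 at 24 h (adjusted p = 0.0697). TCOF1, whose protein treacle assists RNA polymerase I, was at 104, 129 and 151 CPM in DMSO and 191, 193 and 156 CPM at 24 h (0.49 ± 0.15, adjusted p = 0.153). The groups do not overlap, but replicate 3 hardly differed from its own DMSO library. NOP10 was at 66.7, 66.6 and 54.8 CPM in DMSO and 92.6, 91.7 and 67.9 CPM at 24 h (0.42 ± 0.13, adjusted p = 0.162), again with no overlap.

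At 24 h in Ly1, 5 members stood wholly above DMSO (LYAR, TCOF1, NOP10, WDR75 and WDR12; 8.13% of all genes) and 0 wholly below (7.8%). At 12 h there were 3 above (LYAR, DDX21 and WDR12; 8.15%) and 1 below (PPAN; 7.03%). Between 24 h and 12 h there were 4 above (GAR1, TCOF1, WDR75 and PPAN; 8.41%) and 0 below (8.32%).

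NCL, NPM1, FBL and NOP58 shared a pattern at 24 h in Ly1, with replicates 1 and 2 above DMSO and replicate 3 near or below it. NCL was at 1893, 2025 and 2069.6 CPM at 12 h and 2282, 2278 and 1873 CPM at 24 h (0.14 ± 0.11). NPM1 was at 1766, 1692 and 1611 CPM at 12 h and 2103, 1998 and 1550.3 CPM at 24 h (0.16 ± 0.13). FBL was at 325, 318 and 305 CPM at 12 h and 367, 343 and 291 CPM at 24 h (0.16 ± 0.10). In each of the 3 genes replicate 3 was the lowest library at 24 h. NOP58 was at 177, 177 and 166 and then 221, 223 and 145 CPM (0.24 ± 0.15), with replicate 3 below every DMSO library. NOP56 was at 212, 215 and 194 and then 221, 214 and 201 CPM (0.038 ± 0.087), and DKC1 at 245, 231 and 221 and then 229, 242 and 213 CPM (0.0067 ± 0.11). Both overlapped their DMSO libraries at both times.

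Several genes of the processome and of RNA polymerase I did the reverse, with replicate 3 the highest library at 24 h. UTP20 was at 89.5, 111 and 111 CPM at 12 h and 69.8, 78.1 and 111 CPM at 24 h (-0.21 ± 0.18), and within replicates 1, 2 and 3 it differed from DMSO by -0.61, -0.50 and 0.45. HEATR1 was at 153, 168 and 170.4 and then 135, 140.0 and 177 CPM (0.045 ± 0.11). POLR1A was at 141, 166 and 170.3 and then 117, 127 and 186 CPM (-0.042 ± 0.16). For all 3 the first 2 replicates were lower than in DMSO and the last was higher. DDX21, an abundant RNA helicase, was at 397, 395 and 337 CPM in DMSO and 307, 338 and 459 CPM at 24 h (-0.030 ± 0.14), in the same way. POLR1B was at 94.6, 99.1 and 96.0 and then 74.4, 76.5 and 99.3 CPM (-0.11 ± 0.13), in the same way, while RRN3 was at 96.4, 99.8 and 91.0 and then 90.2, 92.9 and 92.5 CPM (0.018 ± 0.094) with little spread. Of the 60S complex, BOP1 was at 188, 179 and 167 and then 227, 219 and 167 CPM (0.23 ± 0.14), and PES1 at 166, 156 and 151 and then 163, 169 and 153 CPM (-3.5e-04 ± 0.091). BOP1, like NCL, had its lowest 24 h library in replicate 3, and PES1 stayed within its DMSO range.

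**Figure D2:**
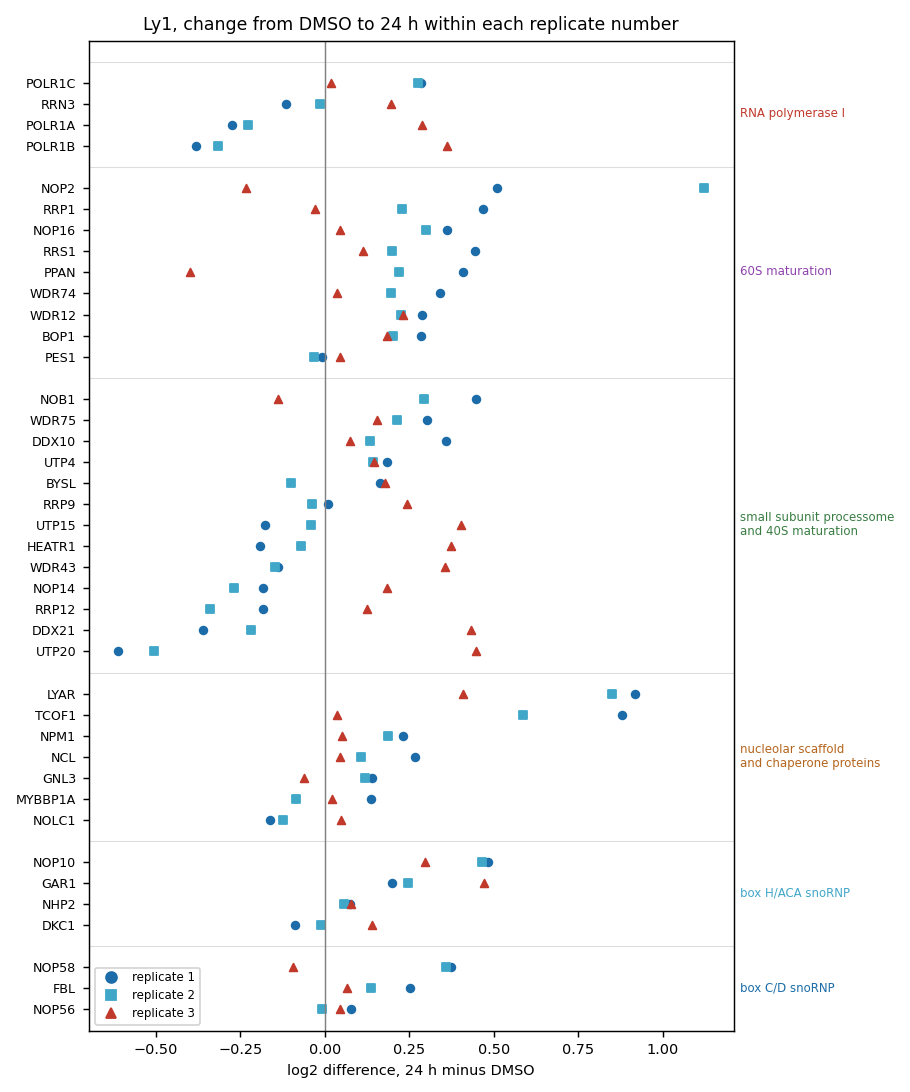
Log2 difference between Ly1 at 24 h and Ly1 in DMSO within each replicate number (x axis) for the 40 genes by role, 1 point a replicate. For UTP20 the points are at -0.61, -0.50 and 0.45 in replicates 1, 2 and 3, and for LYAR at 0.92, 0.85 and 0.41, so replicate 3 parts from the others in both directions.

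The Ly1 counts rest on replicate 3. Without the replicate 3 libraries 28 of the 40 genes were called at 24 h, 20 higher and 8 lower, where 46.2% of all genes were (22.4% higher and 23.9% lower). That fit, like all without replicate 3, keeps only replicates 1 and 2 of each group. They were the closest pair in every group, so its errors cover only the scatter between close libraries. Without the Ly1 24 h library of replicate 3 alone, 16 were called, all of them higher, which is 40% of the members against 9.72% of all genes that were higher. In the fit without replicate 3, 7 of the 9 genes of 60S maturation were higher and 0 lower, with RRP1 (0.35 ± 0.064), NOP16 (0.33 ± 0.061) and RRS1 (0.32 ± 0.069) the largest after the uncertain NOP2. The box C/D genes NOP58 (0.37 ± 0.053) and FBL (0.20 ± 0.053) were higher, as were the box H/ACA genes NOP10 (0.47 ± 0.062) and GAR1 (0.22 ± 0.073). Of the scaffold genes LYAR (0.88 ± 0.063), TCOF1 (0.73 ± 0.092), NPM1 (0.21 ± 0.051) and NCL (0.18 ± 0.055) were higher and NOLC1 (-0.14 ± 0.055), a snoRNP chaperone, was lower.

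The 13 small subunit genes split in that fit, with 4 higher and 5 lower. NOB1, the nuclease that finishes 18S ribosomal RNA, was higher by 0.37 ± 0.060. UTP20 (-0.56 ± 0.081), the helicase DDX21 (-0.29 ± 0.057), RRP12 (-0.26 ± 0.068), NOP14 (-0.23 ± 0.064) and WDR43 (-0.14 ± 0.055) were lower. With all libraries the mean of WDR43 was 150 CPM in DMSO and 152 CPM at 24 h. Of RNA polymerase I, the large subunit genes POLR1B (-0.35 ± 0.060) and POLR1A (-0.25 ± 0.066) were lower and POLR1C, of a subunit shared with RNA polymerase III, was higher (0.28 ± 0.067). Between 24 h and 12 h 28 members were called without replicate 3, 21 higher and 7 lower, where 41.7% of all genes were (19.9% and 21.7%). At 12 h there were 3, LYAR higher (0.29 ± 0.065; 5.23% of all genes) and RRP9 and RRP12 lower (-0.24 ± 0.072 and -0.21 ± 0.068; 3.76%), 9% of all genes in either direction. With the replicate as a block, LYAR and NOP10 were called at 24 h (1.13% of all genes were higher). By the rule given below, the replicate numbers did not pair the libraries of that comparison.

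Exon length moved with the Ly1 values at 24 h. Spearman's correlation of exon length with the fold change was -0.309 over the 40 genes and -0.261 over 13882 genes, which share their libraries and are not independent replicates. Within replicates 1, 2 and 3 it was -0.346, -0.277 and 0.14 over all genes. The 9 members under 2500 bases of exon had a median fold change of 0.20 against 0.12 for all such genes, the 15 members up to 5000 bases 0.072 against 0.013, and the 16 longer members 0.049 against -0.076. Replicate 3 minus the mean of replicates 1 and 2 at 24 h moved with exon length too. The correlation was 0.536 over the members and 0.43 over all genes. Its all-gene medians were -0.33 under 2500 bases, -0.075 up to 5000 bases and 0.17 above. Of the members, 0 of 9, 3 of 15 and 6 of 16 in these bins lay above 0. The part of length in the member values was not tested.

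MYC was not called in Ly1. It was at 414, 445 and 384 CPM in DMSO, 420.3, 435 and 399 CPM at 12 h and 289, 290.1 and 426 CPM at 24 h (-0.31 ± 0.14 at 24 h, adjusted p = 0.313). Replicates 1 and 2 were lower at 24 h than in DMSO and replicate 3 was not. Of 24 genes of G2 and mitosis, 14 were called higher at 24 h (0.343% of all genes), CCNB1 (cyclin B1) by 1.24 ± 0.20. In U2932 all 24 lay above 0 at 12 h and at 24 h (medians 0.23 and 0.42), and 0 were called. The part of MYC or of these genes in the member values was not tested.

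In U2932 the member nearest to a call at 24 h was GNL3. It was at 163, 154 and 149 CPM in DMSO, 183, 175 and 171 CPM at 12 h and 176, 181 and 176 CPM at 24 h. All 6 treated libraries stood above all 3 DMSO libraries, with fold changes of 0.19 ± 0.068 at 12 h (adjusted p = 0.999) and 0.22 ± 0.068 at 24 h (adjusted p = 0.315). LYAR was at 105, 107 and 78.6 CPM in DMSO, 122, 129 and 102 CPM at 12 h (0.29 ± 0.13) and 114, 121 and 108 CPM at 24 h (0.27 ± 0.13). Within each replicate number its treated libraries were above DMSO. In U2932 deviations of same-numbered libraries from their group means correlated, though replicate 3, which stood apart, enters those means. With the replicate as a block in edgeR, GNL3 (0.22 ± 0.056, adjusted p = 0.0449) and LYAR (0.28 ± 0.069, adjusted p = 0.0422) were called at 24 h. There 2.23% of all genes were higher.

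Without the replicate 3 libraries 4 members were higher in U2932 at 24 h (4.67% of all genes; 9.01% in either direction). They were TCOF1 (0.24 ± 0.061), NOP16 (0.21 ± 0.065), GNL3 (0.19 ± 0.053) and LYAR (0.17 ± 0.055). At 12 h NOP16 (0.25 ± 0.065) and LYAR (0.25 ± 0.054) were higher (0.902%; 2.86% in either direction), and between the times NHP2 (-0.20 ± 0.057) and NPM1 (-0.19 ± 0.054) were lower (2.35%; 6.19% in either direction).

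At 12 h in U2932, 6 members stood wholly above DMSO (GNL3, UTP4, WDR75, DDX10, RRP1 and POLR1C; 3.77% of all genes) and 0 wholly below (4.6%). At 24 h there were 4 above (GNL3, LYAR, WDR75 and DDX10; 7.95%) and 4 below, the box H/ACA genes NHP2, NOP10 and GAR1 and the processome gene RRP9 (10.8%). From 12 h to 24 h there were 0 above (8.84%) and 6 below (NHP2, GAR1, UTP4, RRP9, RRP12 and POLR1C; 10.6%).

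Among the members the largest fold change at 24 h in U2932 was that of TCOF1, which was at 135, 125 and 72.1 CPM in DMSO, 128, 141 and 91.6 CPM at 12 h and 143, 161 and 122 CPM at 24 h. Its libraries overlap, and the change was 0.38 ± 0.25 (adjusted p = 0.609). The members set by name were not called either. NPM1 was at 1951, 1979.5 and 1700.2 CPM at 12 h and 1681, 1739.8 and 1479 CPM at 24 h (-0.042 ± 0.10). NCL was at 1137, 1242 and 820.3 and then 1089, 1187 and 748 CPM (0.012 ± 0.26). FBL was at 371, 389.6 and 264 and then 364, 371 and 237 CPM (-0.11 ± 0.25). In NCL and FBL the wide errors come with a replicate 3 that was low in all 3 groups. NOP56 was at 254, 249.6 and 239 and then 251, 256 and 214 CPM, NOP58 at 202, 212 and 213 and then 187, 193 and 211 CPM, and DKC1 at 259, 266 and 233 and then 235, 244 and 208 CPM. Their fold changes at 24 h were 0.095 ± 0.10, -0.0082 ± 0.064 and 0.051 ± 0.099. HEATR1 was at 165, 184 and 187 and then 162, 171 and 175 CPM and UTP20 at 87.3, 105 and 94.6 and then 77.6, 90.4 and 83.2 CPM (0.070 ± 0.078 and 0.041 ± 0.13 at 24 h). These processome genes overlapped DMSO at both times.

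BOP1 was at 96.2, 106 and 75.7 and then 104, 109 and 77.7 CPM (0.24 ± 0.23 at 24 h), and PES1 at 141, 154 and 139.6 and then 135, 141 and 118 CPM (-0.049 ± 0.096). POLR1A was at 119, 136 and 136 and then 123, 135 and 131 CPM (0.061 ± 0.091), and POLR1B at 74.3, 89.4 and 67.7 and then 77.8, 80.8 and 57.3 CPM (0.030 ± 0.16). RRN3 was at 68.7, 72.2 and 75.5 and then 64.7, 68.2 and 79.7 CPM (0.034 ± 0.10). All 5 overlapped their DMSO libraries at 24 h.

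**Figure D3:**
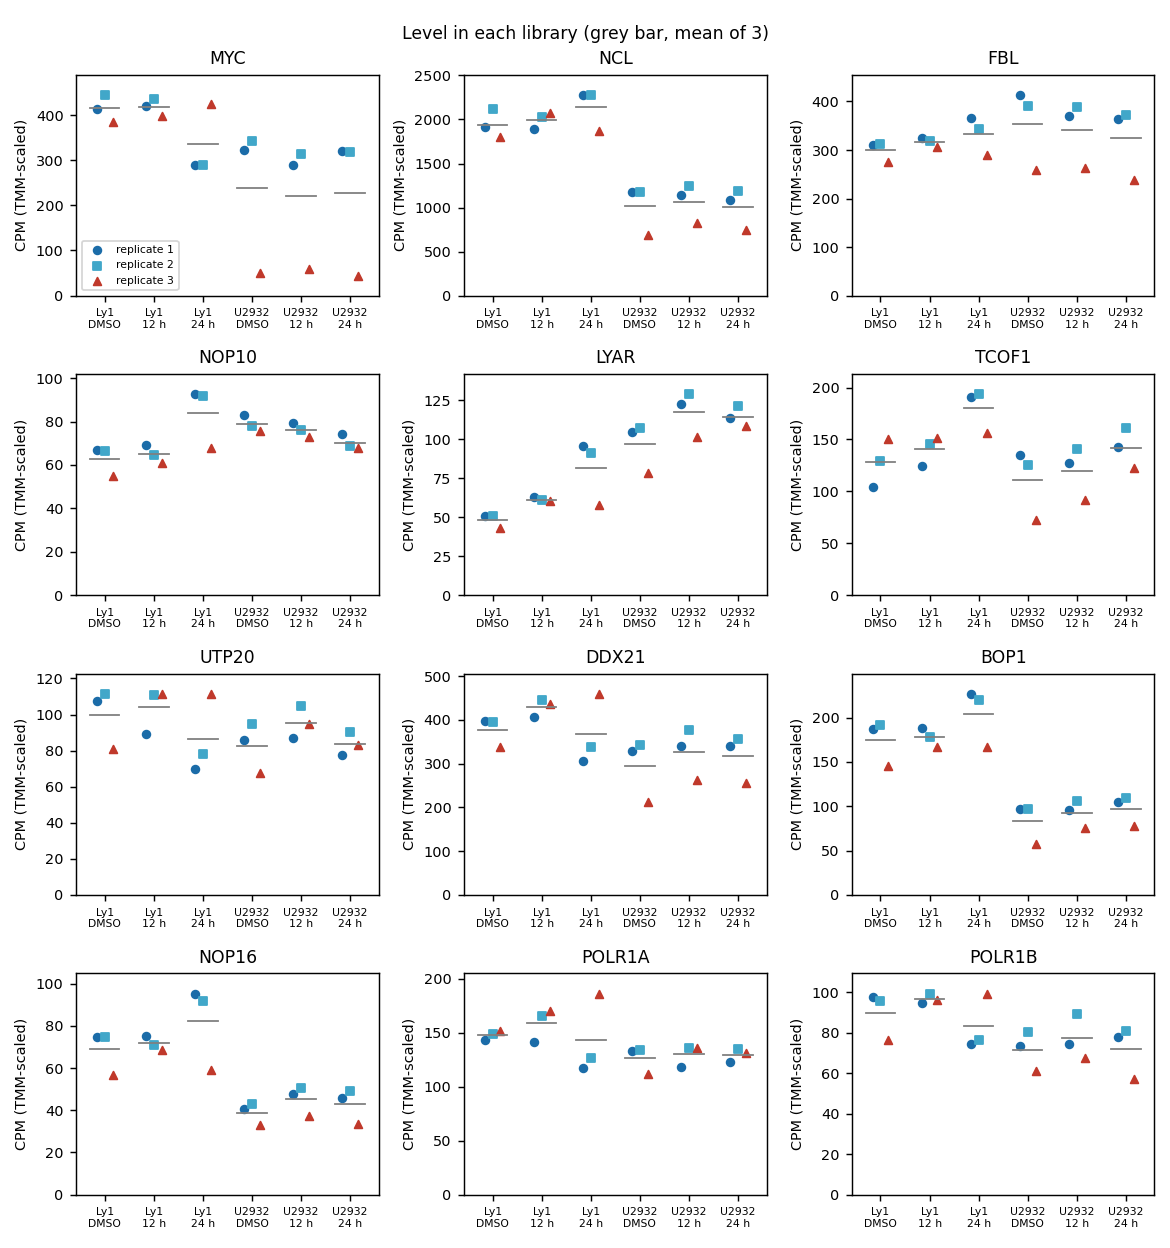
Level of MYC and 11 members in the 18 libraries (y axis: TMM-scaled CPM from 0; x axis: group; points: replicates 1 to 3; grey bar: mean of 3). In U2932 replicate 3 is the lowest library of every group for MYC, NCL, FBL and BOP1, and in Ly1 at 24 h it is the lowest for LYAR and the highest for POLR1A.

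The third comparison asks whether the response differed between the lines. No member was called at 12 h or 24 h, and 0% of all genes were. DESeq2 and limma's voom also called 0 members at both times. At an unadjusted p under 0.05 there were 0 members at 12 h (2.5% of all genes) and 3 at 24 h (8.33%), NOP10, LYAR and GAR1. NOP10 had fold changes at 24 h of 0.42 ± 0.13 in Ly1 and -0.14 ± 0.076 in U2932, and the difference was -0.59 ± 0.16 (adjusted p = 0.329), below 0 in all 3 replicate numbers. With the replicate as a block it was called (-0.58, adjusted p = 0.0223; 0.136% of all genes were lower), although the numbers did not pair the lines. LYAR differed by -0.51 ± 0.22 and GAR1 by -0.42 ± 0.16.

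At 12 h 27 of the 40 differences lay above 0 (49.1% of all genes) and at 24 h 15 (49.6%), with none of the 9 genes of 60S maturation above 0 at 24 h. Over single libraries left out these counts ran from 21 to 34 and from 8 to 21, the last of these without U2932 24 h replicate 3. Without replicate 3, 14 members differed at 24 h, 5 higher and 9 lower in U2932, where 26.6% of all genes did (16.2% and 10.5%). LYAR (-0.68 ± 0.082), NOP10 (-0.59 ± 0.086), TCOF1 (-0.45 ± 0.15) and NOP58 (-0.38 ± 0.073) led the lower ones, and POLR1B (0.45 ± 0.094) and DDX21 (0.40 ± 0.080) the higher ones. At 12 h NOP16 (0.31 ± 0.090) and DDX10 (0.29 ± 0.084) were higher (1.74%; 4.5% in either direction).

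In U2932, MYC was low in the replicate 3 library of every group. It was at 323, 343 and 50.3 CPM in DMSO, 289.7, 314 and 58.1 CPM at 12 h and 319.8, 319 and 43.7 CPM at 24 h. Replicate 3 is described here against the mean of replicates 1 and 2 within each group, on the log2 CPM scale and with no test, since these libraries were singled out for their low MYC. For MYC these differences were -2.75, -2.41 and -2.89 in DMSO, at 12 h and at 24 h. The median of the 40 members was -0.18, -0.15 and -0.19, and that of all genes was within 0.01 of 0. Of the members 30 were lower in all 3 groups, 75% against 25.6% of all genes. NOP58 and RRN3 were the 2 that were higher in all 3, 5% against 23.9%. By at least 0.5 in all 3 groups, NCL and FBL were lower, 5% of the members against 4.02% of all genes.

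NCL was at -0.79, -0.57 and -0.62 and FBL at -0.66, -0.56 and -0.65 in the 3 groups, in the same order. TCOF1 (-0.88, -0.58 and -0.33), BOP1 (-0.79, -0.45 and -0.48) and DDX21 (-0.69, -0.49 and -0.46) followed. All 7 scaffold and chaperone genes were lower in all 3 groups, with group medians of -0.38, -0.34 and -0.30, as were 8 of 9 genes of 60S maturation (-0.13, -0.16 and -0.22) and 9 of 13 small subunit genes (-0.17, -0.15 and -0.080). NPM1 (-0.19, -0.24 and -0.23) and DKC1 (-0.24, -0.20 and -0.23) were lower by less. Of the other box C/D genes, NOP56 was at -0.27, -0.11 and -0.26 and NOP58 at 0.026, 0.0051 and 0.13, so 1 particle held members at both ends. RNA polymerase I showed no common direction: POLR1B was at -0.35, -0.30 and -0.49, POLR1A at -0.27, 0.063 and 0.0058 and RRN3 at 0.29, 0.066 and 0.24. Of the 128 other biogenesis genes 64 were lower in all 3 groups (25.6% of all genes) and 15 higher in all 3 (23.9%). Their medians were -0.084, -0.091 and -0.070, and 0 were lower by 0.5 or more in all 3 (4.02%).

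**Figure D4:**
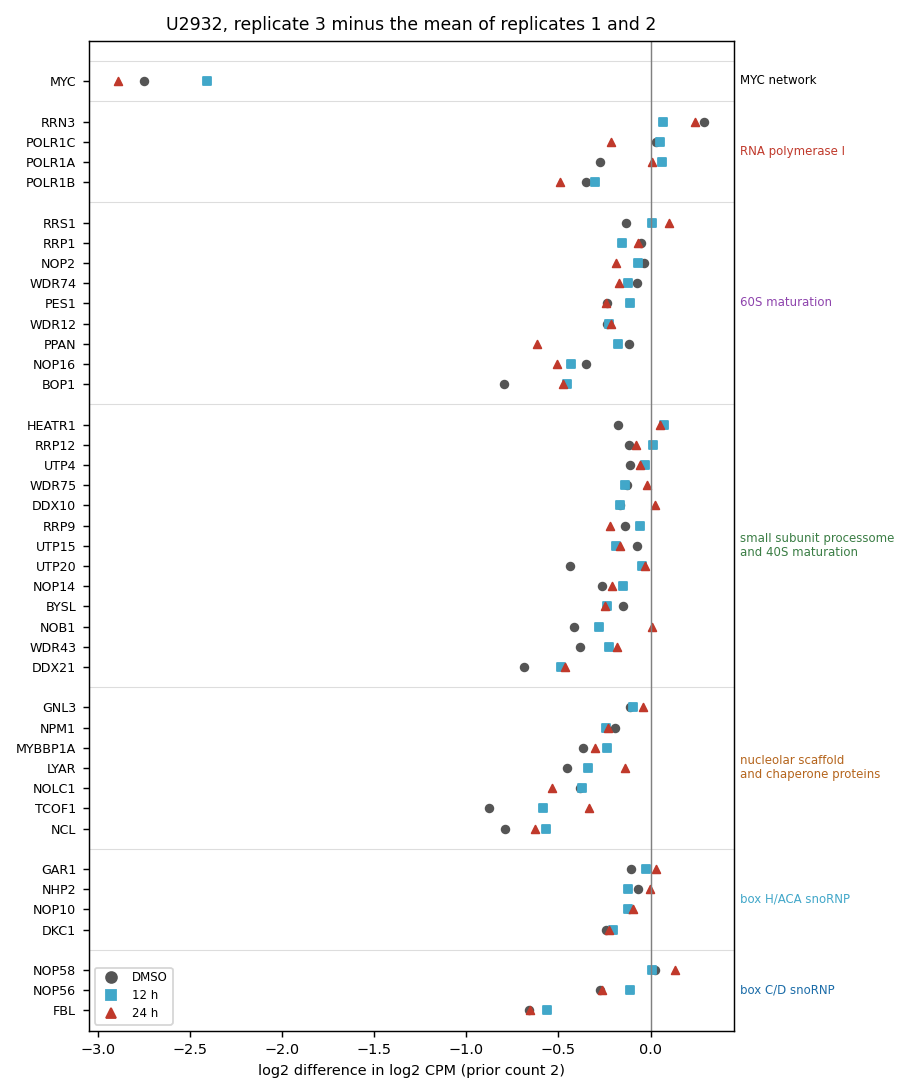
Difference of replicate 3 from the mean of replicates 1 and 2 in U2932 (x axis, log2 CPM) for the 40 genes and MYC, in DMSO, at 12 h and at 24 h. MYC is at -2.75, -2.41 and -2.89, NCL at -0.79, -0.57 and -0.62 and FBL at -0.66, -0.56 and -0.65, while RRN3 lies above 0 in all 3 groups.

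Other genes moved with U2932 replicate 3. The median of the 24 genes of G2 and mitosis was -1.21, -0.52 and 0.39 in DMSO, at 12 h and at 24 h, and that of the 6 B-cell markers was -0.024, 0.093 and 0.10. In Ly1 replicate 3, where MYC was at -0.14, -0.096 and 0.56, the members had medians of -0.19, -0.048 and -0.24. Some markers of other cells were also higher there. The 5 T and NK cell markers summed to 6.63 to 8.05 CPM in Ly1 replicate 3 and 3.61 to 5.05 CPM in replicates 1 and 2, and the 5 fibroblast and endothelial markers to 4.45 to 5.06 CPM and 2.31 to 3.41 CPM. In Ly1 the first sum was nearly all CD247 (3.19 to 5.89 CPM) and CD3G (0.0407 to 2.08 CPM). CD3D and CD3E were at 0.0821 CPM or less and NKG7 at 0. The second sum was nearly all PECAM1 (2.27 to 5.02 CPM), with COL1A1 at 0.0411 CPM or less and COL1A2, PDGFRB and VWF at 0. The genes of G2 and mitosis had medians of 0.48, -0.0032 and -0.16 in Ly1 replicate 3. Of the members there, 19 of 40 were lower in all 3 groups (21.1% of all genes), 1 was higher in all 3 (21%), and 0 were lower by 0.5 or more in all 3 (0.586%). The 129 other biogenesis genes had medians of -0.19, -0.044 and -0.16 in Ly1 replicate 3. Of these, 53 were lower in all 3 groups, 4 were higher in all 3 and 0 were lower by 0.5 or more in all 3. In the replicate 3 values of either line, the part of MYC, exon length, other cells' markers or G2 and mitosis genes was not tested.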

How the data were processed

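RNA of 18 libraries was sequenced in 2 runs that the authors combined, and libraries were made with NuGEN's Universal Plus mRNA-Seq kit, per the labels' protocols. The submitters' processing notes name cutadapt, STAR, Picard and hg38; the sources used here give neither their versions nor how reads were counted, whether strand was used and which annotation release. The deposited values are the authors' raw counts per gene, with 0 columns unused.

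Each line (9 libraries) and both lines (18 libraries) were fitted with edgeR 4.0.16 in R 4.3.3 (TMM, filterByExpr, robust quasi-likelihood test, Benjamini-Hochberg over all genes tested). The SE is the absolute log2 fold change over the square root of F. Within-replicate values are log2 CPM with a prior count of 2, scaled within each line, and overlap of groups is read on the CPM given as levels. Exon lengths are unions of GENCODE exons. DESeq2 1.42.0 and limma 3.58.1 were alternatives, with other size factors, no filter, a replicate block, fits of the compared groups alone, and fits without single libraries or replicate 3. Fits without replicate 3 kept only replicates 1 and 2 of each group. Scripts were tested on simulated data, and figures drawn with matplotlib 3.10.9. The members, lists and tests were chosen with earlier results of these data known. Values in every library are given for 13 members set by name, for the up to 4 largest called changes in each direction per comparison, and for MYC; other members given so were chosen after their values were seen.

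Same-numbered libraries were taken as paired where the correlation of their deviations from the group means passed 0.1 in every pair. It did in Ly1 at 12 h against DMSO (0.213 to 0.434) and in U2932 (0.336 to 0.666 over its comparisons). In Ly1 at 24 h against 12 h it also did (0.1 to 0.332), but the lowest value rounds to the limit. It did not in Ly1 at 24 h against DMSO (0.0733 to 0.211) or between lines (-0.0785 to 0.0211). The group means include replicate 3. A replicate 3 apart in the same way in both groups thus also raises the correlation of replicates 1 and 2. The correlations do not show that those 2 were paired. Replicates of a group differed beyond counting noise, so none was counted as a duplicate. Chi-square per degree of freedom was 3.15 to 8.02 between replicates 1 and 2 and 8.28 to 85.3 against replicate 3. That does not show that they were separate cultures.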

Additional observations from a re-analysis of the deposited data

How the results depend on the processing

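For Ly1 at 24 h against DMSO, where 0 members were called, DESeq2 called 2 (4.64% of all genes), edgeR with no filter on low counts 3 (2.9%), the replicate block 2 (1.96%) and the fit without all replicate 3 libraries 28 (46.2%). Without replicate 3 the calls were also 3 in Ly1 at 12 h (9% of all genes), 28 in Ly1 between the times (41.7%), 2 in U2932 at 12 h (2.86%), 4 at 24 h (9.01%) and 2 between the times (6.19%), 28 between the lines in DMSO (73.4%), and 2 (4.5%) and 14 (26.6%) for the line difference in response at 12 h and 24 h. The replicate block called 2 in U2932 at 24 h (4.41%) and 1 for the line difference at 24 h (0.278%), and it moved no other count of calls by over 1.5 times. The median over the members moved by more than its spread over replicates under these settings. Without replicate 3 it was 0.17 in Ly1 at 24 h and -0.056 between the lines. With library size only it was 0.048 in Ly1 at 24 h, 0.12 in U2932 at 24 h, -0.013 between its times and 0.060 for the line difference at 24 h, where the median of all genes moved to 0.14. With no filter it was -0.074 between the times in U2932. Between the lines it was 0.013 with DESeq2, 0.013 with its size factors in edgeR, -0.043 with the replicate block and 0.070 without U2932 replicate 3, a setting chosen after seeing the data. Leaving out single libraries gave 0 to 16 calls in Ly1 at 24 h (16 without Ly1 24 h replicate 3, 21.2% of all genes, and 1 without Ly1 DMSO replicate 3, 5.67%). Between its times it gave 0 to 17 (17 without Ly1 24 h replicate 3, 19.5%). Between the lines it gave 12 to 22. The 12 came without Ly1 DMSO replicate 1 (58.3% of all genes) or U2932 DMSO replicate 1 (58.4%). The 22 came without Ly1 24 h replicate 3 (65.2%). For the line difference at 24 h it gave 0 to 3 (3 without Ly1 24 h replicate 3, 3.57%), and in the other comparisons 0. The median then ranged from -0.033 to 0.091 in Ly1 at 12 h, 0.089 to 0.22 at 24 h and 0.055 to 0.19 between the times, from 0.053 to 0.20, -9.2e-04 to 0.13 and -0.13 to -7.2e-05 in U2932, from -0.057 to 0.039 between the lines, and from 0.020 to 0.14 and -0.15 to 0.013 for the line differences at 12 h and 24 h. The cause of these shifts was not tested. No member value called in the main fit reversed under any setting run. WDR43, not called in the main fit, was called lower in Ly1 at 24 h without replicate 3 (-0.14 ± 0.055). Its means over all 3 libraries were 150 CPM in DMSO and 152 CPM at 24 h. In libraries of 22549853 to 29386802 counts, NOP2 and PPAN had the lowest levels of the members. Both overlap another gene on the same strand, which leaves their counts uncertain, and the part of depth was not tested.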
